A study of Mus musculus with 3 samples.

Results

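Integrins are the transmembrane receptors that hold a fibroblast to its matrix, and focal adhesion adaptors are the proteins that connect their tails to actin filaments. RNA of 37 such genes was measured among the 46603 genes of the series: 17 integrin α chains, 8 integrin β chains and 12 adaptors. They were chosen by symbol, and each of the 37 matched 1 Ensembl gene of the deposited count tables. The samples were 3 libraries of polyadenylated RNA from mouse embryonic fibroblasts (MEFs) of genotype Beta-actin KO-NLS, that is, β-actin knockout cells made to express β-actin carrying a nuclear localization signal (KO-actin cells). All 3 carried the knockout and the tagged protein, were numbered as replicates 1 to 3, and belonged to 1 condition, so no contrast between conditions could be made. The sources used here do not give the promoter of the tagged β-actin, whether the line is a clone, the time of culture or whether the libraries came from separate cultures. The p-values below therefore measure only the spread between these libraries, which may be technical.

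An integrin is a heterodimer of 1 α and 1 β chain. The α chain largely decides the ligand: some α chains bind collagens, others laminins, others the Arg-Gly-Asp (RGD) motif of fibronectin and vitronectin, and a further set is known from leukocytes, where it binds counter-receptors of other cells. Talin and kindlin bind the β tail and switch the receptor on, the complex of ILK, PINCH and parvin is assembled on it, FAK, paxillin and p130Cas carry the signal, and vinculin, zyxin and tensin tie the site to actin. RNA levels do not give the amount of protein or of heterodimer at the cell surface.

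Levels are given as CPM, the depth-scaled count on TMM library sizes, and, wherever genes are compared with each other, as CPM per kb of merged exons. In bulk RNA, fewer cells that express a gene and less of its RNA per cell cannot be told apart. The library totals were between 44383636 and 49932446 counts. The limit that a count of 0 sets, 3 counts, was 0.0601, 0.0609 and 0.0671 CPM in replicates 1 to 3, and such limits cover counting error alone. RNA of Actb, the target of the knockout, was at 1085 ± 25.9 CPM (SD, n = 3), and its gene count does not separate the tagged RNA from RNA of the knocked-out locus. Of the fibroblast markers, 6 of 6 were above 3 counts in every library, a limit that 58.9% of all protein-coding genes passed. Vim at 4563 CPM and Col1a1 at 4058 CPM were the highest and Pdgfra, at 4.97 CPM, the lowest. The muscle marker Des, at 10.4 CPM, was above Pdgfra. Leukocyte markers summed to between 0.481 and 0.629 CPM with Cd3e at 0 counts and 2 of 6 above 3 counts in every library, and epithelial markers summed to between 1.48 and 1.92 CPM with 1 of 5 above it. Endothelial markers summed to between 1.99 and 2.54 CPM (2 of 4 above it), platelet and megakaryocyte markers to between 1.56 and 1.86 CPM (2 of 4, Gp9 at 0 counts) and muscle markers to between 9.42 and 11.2 CPM (1 of 4, Des, with Myod1 and Myog at 0 counts).

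Of the 37 genes, 30 had more than 3 counts in every library and 25 averaged 1 CPM or more. Over all protein-coding genes these shares were 58.9% and 52.1%, and over all genes 32.6% and 26.0%. The adaptors reached 1 CPM in 12 of 12 cases and the integrins in 13 of 25. The median level was 33.4 CPM per kb over the 12 adaptors, against 8.31 CPM per kb over the 11257 protein-coding genes of at least 1 CPM. Over all 25 integrins it was 0.217 CPM per kb. That set includes the integrins under 1 CPM, so its median cannot be set against 8.31 CPM per kb. The integrins ranged from genes with no count to Itgb1, while the levels of 11 of the 12 adaptors were between 3.06 and 92.4 CPM per kb. Together the 37 genes held between 0.562% and 0.576% of the counts of a library.

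Itgb1, which encodes the β1 chain shared by the collagen, laminin and fibronectin receptors, had the highest level of the 37 genes. On GRCm38 it spans 128685654 to 128733200 of chromosome 8, plus strand. The libraries had 209, 192 and 208 CPM per kb of it, averaging 203 ± 9.65 CPM per kb (SD, n = 3). This level was above that of 98.6% of the protein-coding genes of at least 1 CPM. The promoter window of Itgb1, 250 bases before to 50 bases after the RefSeq start on GRCm38.p6 (chr8:128685404-128685703, plus strand), held 27 CpG dinucleotides, against a median of 7 over the 32851 RefSeq promoter windows. It is printed here for comparison with the window of a silent integrin gene given with the leukocyte chains, with each CpG in capitals.
Itgb1: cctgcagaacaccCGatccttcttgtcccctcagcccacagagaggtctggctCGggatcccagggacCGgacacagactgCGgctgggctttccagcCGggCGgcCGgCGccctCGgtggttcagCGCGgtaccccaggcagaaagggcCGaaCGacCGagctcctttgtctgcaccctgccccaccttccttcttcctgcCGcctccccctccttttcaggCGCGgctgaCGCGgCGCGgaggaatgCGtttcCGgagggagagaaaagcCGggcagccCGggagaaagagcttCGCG

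Itgb5 came second among the β chains. It encodes the β5 chain, a partner of αv in a vitronectin receptor. Its level was 53.8, 57.7 and 54.3 CPM per kb in replicates 1 to 3, a mean of 55.3 ± 2.08 (SD, n = 3). Itgb1 was above it 3.88-fold, 3.33-fold and 3.83-fold in turn, and the ranges of both genes were far apart. An exact sign-flip permutation test of this ratio gave a two-sided p of 0.25, the smallest that this test allows with 3 libraries. Levels of different genes are therefore compared by the ranges of the 3 libraries. Itgb1 carried 75.6% ± 1.49 (SD, n = 3) of the summed CPM per kb of the β chains, and Itgb5 20.6% ± 1.38. Itgb7, whose product is known from lymphocytes as the partner of α4 and αE, was the next at 7.46, 7.87 and 7.70 CPM per kb, with 1031, 1074 and 953 counts. Both known partners of β7 were far below it, with Itga4 at 1, 0 and 0 counts and Itgae at 31, 19 and 31 counts. Itgb3, which encodes the β3 chain of the classical vitronectin receptor and of the platelet fibrinogen receptor, was at 1.99, 1.79 and 2.07 CPM per kb, and Itgb5 was above it 28.5-fold on average (SD 3.21, n = 3).

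Itgb8, the β chain of a receptor that activates latent TGF-β, had 110, 107 and 126 counts, or 2.40 CPM. The other 3 β chains had 32 counts or fewer in every library. Itgb4, the β chain of the epithelial hemidesmosome, had 32, 15 and 16 counts, Itgb2, the leukocyte β chain, had 11, 8 and 12, and Itgb6, an epithelial partner of αv, had 6, 13 and 5. All 8 β chains thus passed 3 counts in every library, and 5 of 8 averaged 1 CPM or more. In order of CPM per kb, each β chain was above the next in all library values except Itgb2 and Itgb4, whose ranges overlapped.

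Among the α chains, 3 genes made up most of the RNA. Itga5, the α chain of the classical fibronectin receptor, lies on chromosome 15 from 103344286 to 103366763 and had 108, 103 and 102 CPM per kb, a mean of 104 ± 3.23 (SD, n = 3). Itga3, a laminin-binding α chain, lies on chromosome 11 from 95044474 to 95076801 and had 53.6, 56.5 and 50.8 CPM per kb. Itgav, the αv chain of the vitronectin receptors, lies on chromosome 2 from 83724397 to 83806916 and had 21.0, 18.8 and 20.5 CPM per kb. The ranges of these 3 genes did not overlap with each other or with any lower α chain. Itga5 was above Itga3 by 1.95-fold (SD 0.110, n = 3) and above Itgav by 5.19-fold (SD 0.247, n = 3). Per kb of the longest transcript these ratios were 1.85 and 3.81, and with no division by length 1.68 and 2.38.

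Grouped by ligand, the RGD-binding α chains carried 64.0% ± 1.29 (SD, n = 3) of the summed CPM per kb of all α chains, the laminin-binding chains 32.3% ± 1.19 and the collagen-binding chains 3.66% ± 0.161. The same order of the 3 classes was seen in 3 of 3 libraries. The leukocyte chains carried 0.0705% ± 0.0205, and the α4 and α9 chains 0.00571%, a value made of 5 counts or fewer per gene and library.

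In the RGD-binding class, Itga5 alone was 53.1% and Itgav 10.3% of the α chain total. Itga2b, the αIIb chain of the platelet fibrinogen receptor, had 281, 350 and 275 counts, or 1.15 ± 0.137 CPM per kb (SD, n = 3), while its partner Itgb3 had 1.95 ± 0.142 CPM per kb. The defining platelet markers beside it were at 0 counts in every library for Gp9, at 1, 1 and 0 counts for Pf4 and at 37, 28 and 25 counts for Gp1ba, and Ppbp was at 1.04 CPM. Their part in the Itga2b count was not tested. Itga8, an α chain of mesenchymal cells that binds nephronectin, had 4, 2 and 2 counts and was not detectable above 3 counts in every library.

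In the laminin-binding class, Itga3 was followed by Itga6, which also pairs with β4 in hemidesmosomes, at 6.28, 5.91 and 6.26 CPM per kb. Itga7, best known as the laminin receptor chain of muscle, was at 3.43, 3.82 and 3.48 CPM per kb. Itga6 stood at 0.115 and Itga7 at 0.0667 of the level of Itga3, with SDs of 0.00951 and 0.00238 over the 3 libraries. Per kb of the longest transcript these ratios were 0.205 and 0.114. The ranges of Itga6 and Itga7 did not overlap.

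The collagen-binding class was led by Itga11, whose α11 chain is the fibrillar collagen receptor of fibroblasts, at 6.63, 6.58 and 5.75 CPM per kb. Its range overlapped that of Itga6 and lay below that of Itgav. Per kb of the longest transcript Itga11, at 6.53, came after Itga6, at 12.9, and Itga7, at 7.20. Itga1, the chain of a receptor that prefers basement membrane collagen, was at 0.688, 0.658 and 0.718 CPM per kb, and Itga11 was above it 9.21-fold (SD 1.06, n = 3) on merged exons and 5.61-fold per kb of the longest transcript. Itga10, a collagen receptor chain of cartilage, had 30, 53 and 40 counts. Of its exonic length 33.5% is overlapped by Gm42957 on the same strand, which had 0 counts in every library, so the Itga10 count is uncertain. Its level was 0.165 CPM per kb, and 0.249 with the whole count divided by the exonic length free of other counted genes. Itga2, the collagen receptor chain of platelets and epithelia, had 6, 9 and 3 counts. Itga2 and Itga1 are neighbours on chromosome 13, on the same strand and 21.0 kb apart with no protein-coding gene annotated between them, and their levels differed by more than their ranges.

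**Figure D1:**
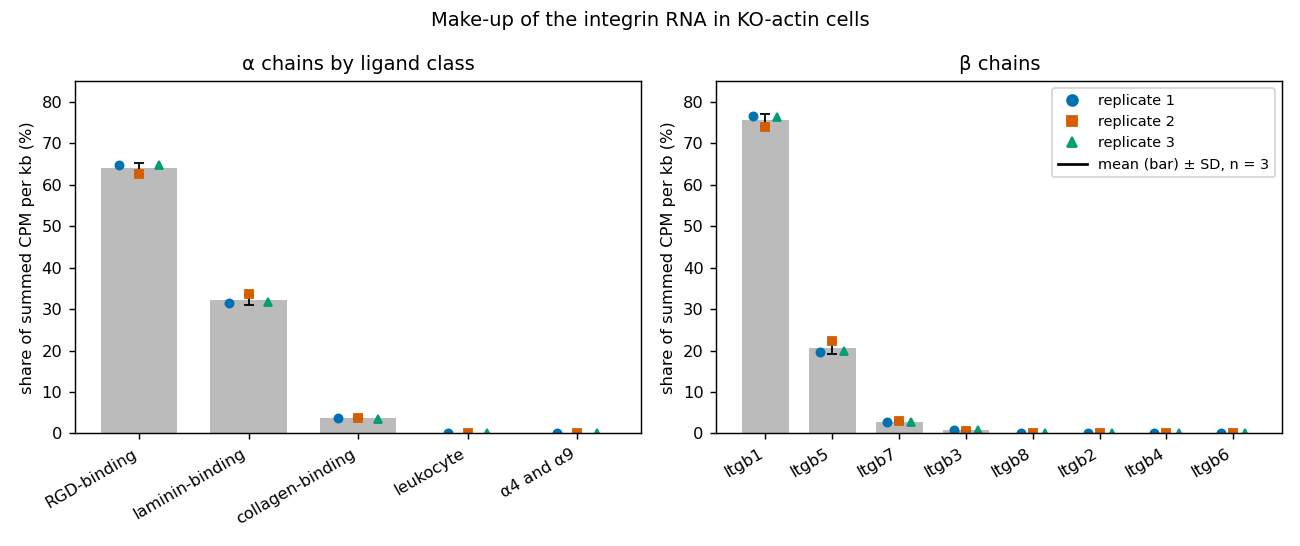
Share of the summed CPM per kb that each ligand class holds among the α chains (left) and each gene holds among the β chains (right), in percent. Bars are means of 3 libraries, error bars the SD and points the libraries. RGD-binding chains hold 64.0% of the α total and Itgb1 75.6% of the β total in these cells.

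The leukocyte α chains and the pair of α4 and α9 were nearly silent. Itgae had 31, 19 and 31 counts and was the 1 chain of these 6 with more than 3 counts in every library. Itgal had 2, 2 and 0 counts, Itgam 0, 2 and 5, and Itga9 5, 4 and 3. Itgax, which encodes the αX chain of dendritic cells and macrophages, had 0 counts in all 3 libraries. Itgam and Itgax lie 11.1 kb apart on chromosome 7, and Itgad, an α chain outside the 37 genes, had 0, 1 and 0 counts. The RefSeq promoter window of Itgax (GRCm38.p6, chr7:128129300-128129599, plus strand) held 5 CpG dinucleotides, in capitals below.
Itgax: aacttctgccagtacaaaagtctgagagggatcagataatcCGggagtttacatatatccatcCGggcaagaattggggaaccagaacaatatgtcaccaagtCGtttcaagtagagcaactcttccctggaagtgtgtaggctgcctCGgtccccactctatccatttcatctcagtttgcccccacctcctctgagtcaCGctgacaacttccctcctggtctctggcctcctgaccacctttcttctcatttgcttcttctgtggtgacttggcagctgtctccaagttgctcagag

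RefSeq promoter windows were at hand for 26 of the 37 genes. The 18 of them with at least 1 CPM had between 5 and 37 CpG in their richest window, with a median of 22, and the 8 below 1 CPM had between 5 and 23, with a median of 10. At least 20 CpG were present in 10 of the 18 and in 1 of the 8. This split was not made over all genes, so the counts do not set these genes apart from others. Genes with several windows, which had more chances of a rich one, were Bcar1, Ilk, Itga3 and Lims1 among the 18 and Itgb6 among the 8. The exceptions went both ways: Itga8 had 23 CpG and 4, 2 and 2 counts, whereas Itga5 had 13 CpG and the highest level of the α chains, and Itgb7 had 5 CpG at 21.3 CPM. CpG number is a description of these windows and was not set against any chromatin measurement.

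The summed CPM per kb of the β chains was 1.37 times that of the α chains (SD 0.0565, n = 3). This ratio turned with the length used: it was 1.20 per kb of the longest transcript and 0.903 with no division by length. Itgb1 alone was at 1.04 times the sum of the 12 α chains known to pair with β1 (SD 0.0587, n = 3), with 1.04, 0.981 and 1.10 in the 3 libraries, which lie on both sides of equality, and at 0.912 times that sum per kb of the longest transcript and 0.709 with no division by length. Itgav stood at 0.365 of the level of Itgb5 (SD 0.0337, n = 3) on merged exons, at 0.513 per kb of the longest transcript and at 1.10 with no division by length.

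Each of the 12 adaptors was at 2.43 CPM or more, and 10 of them at 100 CPM or more. Tln1, which encodes talin-1, the protein that binds the β tail and activates the receptor, had 93.4, 94.5 and 89.2 CPM per kb, a mean of 92.4 ± 2.81 (SD, n = 3), and was the first adaptor in this order. Per kb of the longest transcript Zyx and Bcar1 came before it. Tln2, its paralog known from muscle and brain, had 3.09, 3.19 and 2.89 CPM per kb. Tln1 was above Tln2 30.2-fold (SD 0.639, n = 3) on merged exons. This ratio was 23.3 per kb of the longest transcript and 16.1 with no division by length. Fermt2, the kindlin of most adherent cells, had 41.3, 38.3 and 41.4 CPM per kb. Its paralogs were far lower, with Fermt1, the epithelial kindlin, at 0 counts in every library and Fermt3, the kindlin of blood cells, at 66, 53 and 35 counts.

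Zyx and Vcl link the site to actin. Zyx encodes zyxin, a LIM protein of actin stress fibres, and had 86.8, 88.1 and 79.8 CPM per kb, a range that overlapped that of Bcar1. Vcl encodes vinculin, which binds talin and actin, and had 62.4, 61.2 and 61.7 CPM per kb, with a highest library 1.02 times the lowest. Vcl lies on chromosome 14 from 20929398 to 21033676, and 25.5% of its exonic length is overlapped by Ap3m1 on the opposite strand, which had 47.6 CPM. Dividing the whole count by the exonic length free of other counted genes gave 82.9 ± 0.829 CPM per free kb (SD, n = 3). Tns1, which encodes the actin-binding adaptor tensin-1, had 8.97, 9.59 and 8.98 CPM per kb.

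Several genes of the actin cytoskeleton are known targets of SRF, a transcription factor that binds the CArG box and whose cofactors respond to the actin monomer pool. The pattern of the CArG box is the same on both strands, although a single match need not be. This pattern was searched in the RefSeq promoter windows. It was present in 3 of the 32 windows (9.38%) of the 26 genes that had one, against 1.63% of all windows. The difference rests on 3 matches and was not tested, so it does not set these genes apart from others. The pattern was found 227 bases before the start of Vcl, 204 bases before that of Fermt2 and 50 bases before 1 of the starts of Itgb6. Vcl and Fermt2 were at 61.8 and 40.3 CPM per kb and Itgb6 at 0.0232 CPM per kb, so the match went with high and with very low levels. The Vcl window (GRCm38.p6, chr14:20929148-20929447, plus strand) is printed with the match in capitals. A match is a description of the sequence and not a binding site.
Vcl: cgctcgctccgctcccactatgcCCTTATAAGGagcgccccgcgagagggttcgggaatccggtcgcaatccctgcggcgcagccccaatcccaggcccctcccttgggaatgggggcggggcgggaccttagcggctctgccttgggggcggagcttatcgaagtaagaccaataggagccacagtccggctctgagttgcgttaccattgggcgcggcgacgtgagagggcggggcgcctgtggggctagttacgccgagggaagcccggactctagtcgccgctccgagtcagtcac

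Of the signalling adaptors, Bcar1, which encodes the scaffold p130Cas, had 75.3, 83.2 and 72.1 CPM per kb. Ptk2, which encodes focal adhesion kinase (FAK), had 15.7, 15.9 and 15.4 CPM per kb, and Pxn, which encodes the scaffold paxillin, had 13.7, 15.4 and 13.7. Bcar1 was above Ptk2 4.90-fold (SD 0.289, n = 3) on merged exons and 2.81-fold per kb of the longest transcript. Ptk2 was above the neighbouring Pxn in every library.

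The ILK complex is an assembly of the pseudokinase ILK with PINCH-1 (Lims1) and α-parvin (Parva), and its RNAs stood far apart. Lims1 had 51.8, 46.3 and 50.6 CPM per kb and Parva 27.3, 26.4 and 26.0. Ilk had 0.854, 0.961 and 0.840 CPM per kb, from 117, 130 and 103 counts, and was the lowest of the 12 adaptors on this scale. Ilk thus stood at 0.0179 of the level of Lims1 and 0.0333 of that of Parva. Its gene, on chromosome 7 from 105736592 to 105742925 on the plus strand, has 89.7% of its exonic length overlapped by exons of Rrp8 and Taf10 on the opposite strand, which had 53.5 ± 2.05 and 60.7 ± 4.47 CPM (SD, n = 3). How reads on overlapping genes were assigned, and whether strand was used, is not given in the sources used here, so the Ilk count is uncertain. Only 283 exonic bases of Ilk are free of other counted genes. Dividing its whole count by this free length, as if all reads lay there, gave 8.28, 9.32 and 8.15 CPM per free kb. On that scale Ilk was at 0.323 of Parva in place of 0.0333 and above Tln2, at 3.06, so that Tln2 and not Ilk was the lowest adaptor. In the whole table, 72 protein-coding genes had at least 80% of their exons overlapped on the opposite strand, and 19.4% of these reached 1 CPM, against 47.3% of the 16882 with no such overlap, 71.9% of those with an overlap of up to 20% and 61.1% of those between 20% and 80%. Among genes with an overlap the share was thus lower in each class of larger overlap. The genes with no overlap lay between the class of 20% to 80% and that of at least 80%. The part of the overlap in the Ilk count was not tested.

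**Figure D2:**
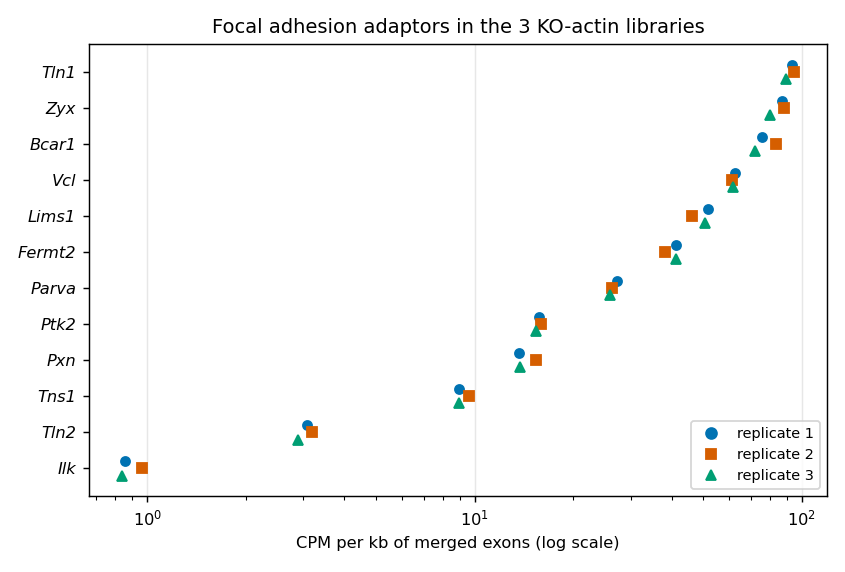
Level of the 12 focal adhesion adaptors in CPM per kb of merged exons on a log axis, with 1 point per library. From Tln1 (89.2 to 94.5) to Tns1 (8.97 to 9.59) the levels fall gradually, and Tln2 and Ilk lie apart below them.

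Summed per kb, the adaptors and the integrins were at nearly the same level, with a ratio of 1.02, 1.06 and 0.998 in the 3 libraries. Per kb of the longest transcript the ratio was 1.36 ± 0.0435 (SD, n = 3).

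Spread between the libraries was small for the abundant genes. Counts of a gene in the 3 libraries were set against their TMM sizes by chi-square, and p-values were adjusted (Benjamini-Hochberg) over the 13814 genes that had 10 or more counts throughout. Spread beyond counting error was called in 43.9% of all genes. Of the 37 genes 28 could be tested, and 17 of them were called. With 100 or more counts throughout, 17 of 25 members were called, against 52.0% of all such genes. Neither 43.9% nor 52.0% is matched for depth, since a limit of 100 counts sets only a minimum. A larger share of genes is called at high counts, so the numbers of called members cannot be set against these shares. No called member had a highest library over 1.5 times its lowest, against 3.84% of all genes tested. At so low a share, 28 genes are too few for this to set the members apart. Of the members tested but not called, Itgb4, Itgae and Itga10 exceeded 1.5, at 2.11, 1.80 and 1.79 times. The median coefficient of variation over the 28 was 5.32%, against 5.58% over all genes tested. The test compares libraries of 1 condition.

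Replicate 2 was the highest or lowest library in 14 of the 17, against 86.0% of the 6063 genes called in all. It was the highest in 10 of them, Bcar1, Itga2b, Itga3, Itga7, Itgb5, Pxn, Tln1, Tln2, Tns1 and Zyx, and the lowest in 4, Itgav, Itgb1, Fermt2 and Lims1. The transcripts of the 10 had between 53.1% and 59.9% GC and those of the 4 between 40.7% and 45.9%. In Tln1, Tln2 and Zyx, however, replicate 3 lay farther from the other libraries than replicate 2 did. The log2 deviation of replicate 2 from the mean of the other libraries was 0.17 in Bcar1 and Pxn, -0.12 in Itgb1, -0.14 in Itgav and -0.15 in Lims1. Over the 28 members, which share their libraries and are not replicates, this deviation had a Pearson correlation of 0.27 with GC content, and over 13770 genes 0.35. Without replicate 2, 7 members were called, Bcar1, Itga3, Itga5, Itga11, Parva, Tln1 and Zyx, against 12.5% of all genes. Within 50 bins of GC content, 13 members were called, against 29.9% of all genes. These included Ptk2, Itgb3 and Itgb4, with adjusted p of 0.020, 0.042 and 0.047 in the binned chi-square test, which were not among the 17. Of the 17, Itgb5, Tns1, Itga7, Itga2b, Tln2, Lims1 and Fermt2 were not called within the bins. Their adjusted p in the binned chi-square test ranged from 0.053 in Fermt2 to 0.97 in Tns1. The shares of 12.5% and 29.9% were not matched for depth, and a larger share of genes is called at high counts.

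Itgb1 shows how much of its spread lay in 1 library. Replicates 1 and 3 had 209 and 208 CPM per kb and replicate 2 had 192, with a Benjamini-Hochberg adjusted p of 3.1e-38 in the chi-square test over all genes and 0.92 without replicate 2. Itga5, with 108, 103 and 102 CPM per kb, had an adjusted p of 5.9e-10 in the same test and 4.1e-08 without replicate 2. Zyx was lowest in replicate 3, with an adjusted p of 1.1e-24 in the same test and 1.8e-15 without replicate 2. Vcl had an adjusted p of 0.14 and Ptk2 of 0.18 at 506 and 185 CPM, so that the test did not tell their spread from counting error. Within the bins of GC content the chi-square test gave 0.19 for Vcl and 0.020 for Ptk2, so Ptk2 was called there.

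**Figure D3:**
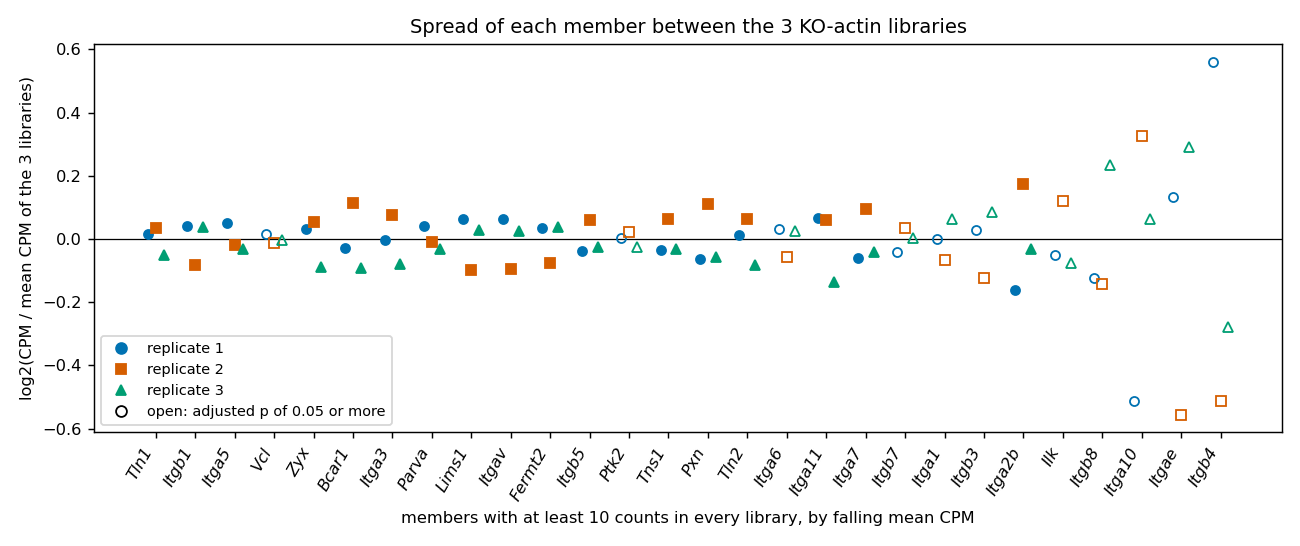
Log2 of each library's CPM over the mean of the 3 libraries for the 28 members tested, ordered by falling mean CPM. Filled symbols mark an adjusted p under 0.05 in the chi-square test. Replicate 2 is the highest library in 10 and the lowest in 4 of the 17 called members, and the points spread most in the genes of lowest CPM at the right.

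The wider adhesion pathway was taken from a list of 72 further genes, chosen with earlier results of these data known. Of these, 61 averaged 1 CPM or more and 63 had more than 3 counts in every library. Over all protein-coding genes these shares were 52.1% and 58.9%. Of the 61 tested for spread, 42 were called as varying between the libraries, against 43.9% of all genes. None of the 42 had a highest library over 1.5 times its lowest, against 3.84% of all genes tested. Fermt3, tested but not called, was at 1.69 times. With 100 or more counts throughout, 42 of 60 were called, against 52.0% of all such genes. This limit does not match depth either, so 42 of 60 cannot be set against 52.0%. Without replicate 2, 21 of 61 were called, against 12.5% of all genes. That share was not matched for depth, whereas 60 of the 61 had 100 or more counts throughout. A larger share of genes is called at high counts, so 21 of 61 cannot be set against 12.5%.

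Flna, which encodes filamin A, an actin crosslinker that competes with talin for β tails, had the highest level of the list at 457 ± 12.2 CPM per kb (SD, n = 3), and the α-actinins Actn1 and Actn4 were at 166 ± 3.69 and 159 ± 3.72. Of the LIM-domain proteins, Csrp1 was at 276 ± 3.26, Trip6 at 70.7 ± 3.43 and Pdlim7 at 56.7 ± 3.84 CPM per kb. All 9 actin linkers and all 6 LIM-domain genes reached 1 CPM, against 52.1% of all protein-coding genes.

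Of the regulators of integrin activation, Rap1b, a small GTPase that recruits talin, was at 61.6 ± 2.33 CPM per kb (SD, n = 3). Dok1, whose product competes with talin for the β tail, was at 32.8 ± 0.343, and Rap1a at 27.7 ± 2.54. Kank4 had 2, 0 and 0 counts. The other 10 of these 11 genes were above 3 counts in every library, against 58.9% of all protein-coding genes. All 17 kinases, phosphatases and signalling adaptors reached 1 CPM, against 52.1% of all protein-coding genes. They were led by Crk at 53.5 ± 2.21, Grb2 at 45.3 to 48.3 and Git1 at 35.4 ± 2.28 CPM per kb. The membrane partners of integrins reached 1 CPM in 6 of 6 cases. Among them Cav1 was at 66.3 ± 0.919, Sdc4 at 48.4 ± 0.713 and the tetraspanin gene Cd81 at 47.7 ± 1.67 CPM per kb.

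Paralogs of the adaptors were present for some families and silent for others. Parvb, the β-parvin gene, was at 38.8 ± 0.607 CPM per kb (SD, n = 3), above Parva in 3 of 3 libraries, although per kb of the longest transcript Parva was at 46.0 and Parvb at 45.3. Tns2 was at 30.8 ± 1.35 and Tgfb1i1, which encodes the paxillin relative Hic-5, at 25.0 ± 0.796. Efs and Fermt1 had 0 counts in every library, and Tns4 had 6, 6 and 3. Among 14 genes of this kind, Itgad included, 8 averaged 1 CPM or more, against 52.1% of all protein-coding genes.

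The ligands ranged from very high to nearly silent. Fn1, which encodes fibronectin, the ligand of α5β1, was at 306 ± 1.51 CPM per kb (SD, n = 3), and Thbs1 and Spp1, which encode the RGD proteins thrombospondin-1 and osteopontin, were at 175 ± 4.27 and 60.6 ± 3.54. Vtn, the vitronectin gene, had 10, 0 and 4 counts, although the vitronectin receptor genes Itgav and Itgb5 were well expressed. Counter-receptors of leukocyte integrins differed among themselves: Vcam1, bound by α4β1, had 994, 1140 and 1093 counts, or 2.54 ± 0.264 CPM per kb, whereas Icam1 had 5, 3 and 1 counts, Icam2 2, 0 and 0 and Madcam1 5, 3 and 7.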

How the data were processed

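The 3 KO-actin libraries were RNA-Seq of polyadenylated RNA. Each deposited file holds the authors' unnormalized read counts by Ensembl gene. The submitters' processing notes name Trimmomatic, FastQC, HISAT2 and HTSeq and the builds mm10 and GRCm38, and the study's methods name DESeq2. Versions, annotation, strand setting and the treatment of reads on several genes are not given in the sources used here. Counts of overlapping genes can therefore be too low or too high.

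Symbols, exons, transcripts and GC content (of the longest transcript) came from GENCODE M21 on GRCm38, which matched 46091 of 46603 identifiers. The 512 others held 0.0544% of the counts. Library sizes were scaled by TMM (edgeR 4.0.16, R 4.3.3), and alternatively by the size factors of DESeq2 1.42.0 or by total counts. CPM was divided by the merged exonic length of a gene. For spread, a chi-square (2 degrees of freedom) was computed for genes having 10 or more counts throughout, adjusted by Benjamini-Hochberg at 0.05. The test was run on simulated counts for the 13814 genes that held counting error alone (Poisson). It called 74.0% of 200 genes raised 1.3-fold in 1 library and 80.5% of 200 raised 1.5-fold. In these runs 8 and 9 unchanged genes were called. The real libraries spread more, with 43.9% of genes called, so these rates do not give the power or error rate in the data. The DESeq2 contrast of the study's methods could not be made, since the libraries hold 1 condition. Promoter windows came from RefSeq on GRCm38.p6. Python 3.11.15, numpy 2.4.6, pandas 2.3.3, scipy 1.17.1 and matplotlib 3.10.9 were used.

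The members and lists were chosen with earlier results of these data known. Genes were named if they were among the 37 members, Actb, the cell type markers, the 3 genes of highest CPM per kb in each pathway subclass or the pathway genes not above 3 counts in every library. The paralogs Fermt3 and Parvb, the neighbours that overlap Ilk, Vcl and Itga10, and the promoter windows printed were chosen after values were seen. Alternatives were other scalings, count filters and length measures, bins of GC content and leaving out each replicate.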

Additional observations from a re-analysis of the deposited data

How the results depend on the processing

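No paired analysis was possible because the libraries form a single group. The number of members varying beyond counting error was 17, ranged from 7 to 15 when a replicate was left out, was lowest without replicate 2, and was between 13 and 19 under the other scalings, filters and the GC bins. For the pathway list it was 42, ranged from 21 to 32 with a replicate left out (21 without replicate 2 and 26 without replicate 3), and was between 33 and 42 otherwise. Fits with fewer libraries also have less power. The numbers of genes of at least 1 CPM (25 and 61) and of members above 3 counts (30) stayed within 1.5 times under every alternative run. The length measure moved the shares, by its construction. Per kb of the longest transcript the collagen-binding, laminin-binding and RGD-binding shares were 3.28%, 34.6% and 62.0%, the ratio of β to α chains 1.20 and that of adaptors to integrins 1.36. With no division by length the collagen-binding share was 3.93%, the share of α4 and α9 0.00759%, the Itgb1 share 78.1%, and both ratios 0.903 and 1.54. An alternative chosen after seeing the data, the whole count divided by the exonic length free of other counted genes, gave 1.10 for adaptors to integrins. With a replicate left out, the ratio of β to α chains ranged from 1.34 to 1.39 and the Itgb1 share from 75.1% to 76.5%. Another scaling moved 0 of 72 single-gene means by over 1 SD, the most being 0.335%. Depth limits what can be said of the 7 integrin genes without more than 3 counts in every library.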
